A study of Mus musculus with 6 samples.

Results

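Lyn, Cd72, Tfec, Pax5 and Bach2 are 5 genes known mainly from leukocytes, and their RNA levels are described here in 6 mouse libraries. They were taken by name from the 53546 gene features of the count files, and all 5 were found. They belong to the 1741 features whose names hold, meaning that at least 90% of the exonic bases given in the files lie on exons of the gene of that name in GENCODE M21, an annotation of the mouse build GRCm38. All libraries were of strain C57BL/6, with 3 in the group control (controls 1, 2 and 3) and 3 in the group spinal cord injury (injury 1, 2 and 3). The labels give the tissue as spinal cord and as intervertebral disc, the series text speaks of the retina of mice 21 days old and of wild mice as the comparison, and no time after injury, kind of injury or other treatment is given. Since no label states which animal a library is from, the tests below reflect variation among libraries that may be purely technical.

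Lyn is a tyrosine kinase of the Src family that works below the antigen receptor of B cells and below receptors of myeloid cells, where it can start signals and also phosphorylate inhibitory receptors. Cd72 is one such inhibitory receptor on B cells, with a lectin-like outer domain. Pax5 is the transcription factor that sets and keeps B cell identity, and it is also used in the developing midbrain and hindbrain. Bach2 is a transcriptional repressor of lymphocytes that delays the turn of B cells into plasma cells and is also made in neurons. Tfec is a transcription factor of the MiT family, related to Mitf and Tfe3, and is known from macrophages. Injured spinal cord is known to take in myeloid cells and lymphocytes from the blood, beside its own microglia. In bulk RNA, fewer cells of a type and less RNA per cell cannot be told apart.

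Controls 1 and 2 stood apart from the other 4 libraries, which touches every comparison below. Total counts were 3896310 and 3921627 in controls 1 and 2, 2615213 in control 3, and 2385703 to 2905828 in the injury libraries. Of the neuronal marker list, 2 of 5 genes could be read (Frrs1l and Gabbr2), and their summed level came to 4.88 and 0.510 CPM (each library's counts per 1000000 counted) in controls 1 and 2, 1775 CPM in control 3 and 1984 to 2079 CPM after injury. Of 7 kidney tubule markers 6 could be read, and they summed to 3594 and 1841 CPM in controls 1 and 2, to 4.97 CPM in control 3 and to 1.68 to 4.82 CPM after injury. In control 3 and the injury libraries 4 of those 6 were at 0 (Slc7a13, Aqp3, Slc34a1 and Acnat2). Neuronal markers, which spinal cord should hold, were therefore near absent from controls 1 and 2. Of 5 disc markers 2 could be read: Krt19 was at 0 in all 6 libraries, and Acan was at 0 in controls 1 and 2, at 11.5 CPM in control 3 and at 2.10 to 8.26 CPM after injury. Results are therefore given for injury against control 3, against controls 1 and 2, and against all 3 controls.

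Lyn was present in all 6 libraries and varied within both groups. Its feature, ENSMUSG00000042228, covers chr4:3678115-3813122 on the plus strand, and its 14 merged exons of 4073 bases equal those of GRCm38. The controls held 453, 924 and 123 counts, or 116, 236 and 47.0 CPM. The injury libraries held 300, 203 and 115 counts, or 103, 71.3 and 48.2 CPM. Control 3 was the lowest of the 6 libraries, just below injury 3, and controls 1 and 2 were above every injury library. The exact 95% Clopper-Pearson interval, which like all intervals and floors here covers counting error only, was 39.1 to 56.1 CPM for control 3 and 39.8 to 57.9 CPM for injury 3, so these libraries could not be separated. Injury 1 (91.9 to 116 CPM) and injury 2 (61.8 to 81.8 CPM) lay above the interval of control 3. Lyn averaged 74.2 ± 27.6 CPM after injury (SD, n = 3) and 133 ± 95.4 CPM in control (SD, n = 3). On the scale of the FPKM values that the authors deposited, the order of controls 1 and 2 against injury did not hold: Lyn stood at 7.33, 14.8 and 4.42 in the controls and at 8.72, 6.15 and 4.96 in injury 1, 2 and 3, so injury 1 exceeded control 1. In the annotation, 248 bases (6.09%) of the Lyn exons are shared with Gm26857 on the other strand, a gene that the count files do not list.

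**Figure D1:**
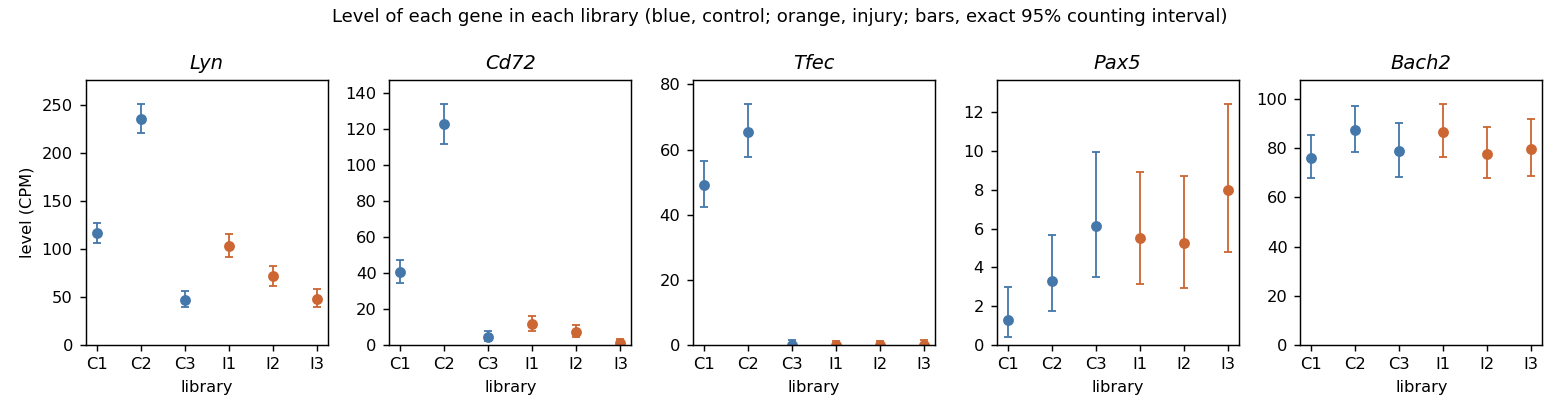
Level of each of the 5 genes in each library, in CPM, with 1 point per library and exact 95% Clopper-Pearson intervals from the counts. Lyn and Cd72 were highest in control 2 (236 and 123 CPM), Tfec had counts in controls 1 and 2 and none in the other 4 libraries, and Bach2 lay between 76.2 and 87.5 CPM throughout.

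Cd72 was far higher in controls 1 and 2 than in any other library. Its feature, ENSMUSG00000028459, covers chr4:43446462-43454628 on the minus strand, with 7 exons of 3422 bases that equal those of GRCm38. The controls held 157, 481 and 11 counts, or 40.3, 123 and 4.21 CPM. Injury 1, 2 and 3 held 33, 20 and 2 counts, or 11.4, 7.02 and 0.838 CPM. Control 3 lay inside the range of the injury libraries, between injury 2 and injury 3. The interval of control 3 (2.10 to 7.53 CPM) overlapped those of injury 2 (4.29 to 10.8 CPM) and injury 3 (0.102 to 3.03 CPM), and lay below that of injury 1 (7.82 to 15.9 CPM). Within the injury group the level of injury 1 was 13.5 times that of injury 3, the widest ratio among the 4 genes with counts after injury. Cd72 averaged 6.41 ± 5.29 CPM after injury (SD, n = 3) and 55.7 ± 60.7 CPM in control (SD, n = 3).

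Part of the Cd72 feature is shared with another gene, which limits what its counts can hold. A single stretch of 1423 bases, 41.6% of the Cd72 exons and 32.1% of the exons of Tesk1, belongs to both genes on opposite strands. The authors' counting ignored strand and left out reads that overlapped more than 1 gene, per the file headers, so reads in that stretch went to neither gene. Tesk1, a kinase of the actin cytoskeleton, stood at 50.6, 44.6 and 65.4 CPM in the controls and at 86.7, 82.2 and 85.1 CPM after injury. It was lowest in controls 1 and 2, where Cd72 was highest, and it did not follow Cd72 from injury 1 to injury 3.

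**Figure D2:**
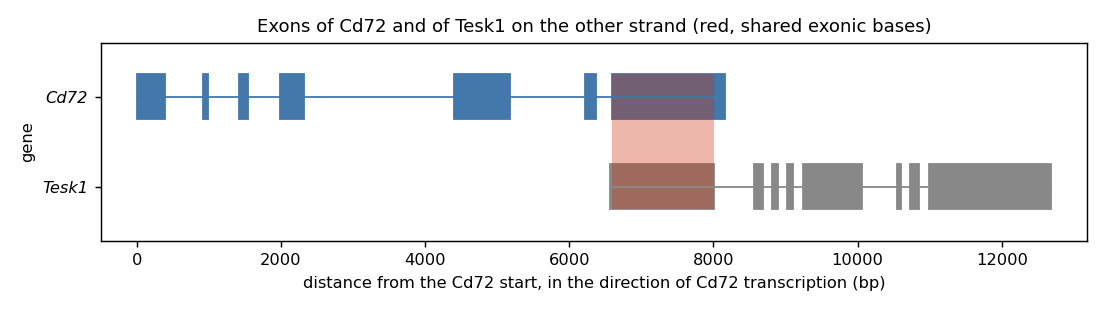
Exons of Cd72 and Tesk1 drawn to scale by distance from the start of Cd72 in base pairs, with the shared stretch marked. The 1423 shared bases lie in the last exon of Cd72, 6592 to 8014 bp from its start.

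Tfec was read in controls 1 and 2 only among these 6 libraries. Its feature, ENSMUSG00000029553, covers chr6:16833372-16898440 on the minus strand in the files and lies 1 base off its place in GRCm38, with 99.9% of its bases on Tfec exons. Controls 1 and 2 held 191 and 257 counts, or 49.0 CPM (42.3 to 56.5) and 65.5 CPM (57.8 to 74.1). Control 3 and injury 1, 2 and 3 held 0 counts each. A count of 0 allows up to 3 counts, which is 1.15 CPM for control 3 and 1.03, 1.05 and 1.26 CPM for the injury libraries. With the floor of 3 counts set once over the 3 injury libraries together (0.369 CPM), the pooled level of controls 1 and 2 (57.3 CPM) was at least 155-fold higher than after injury. This bound holds in CPM only. Total counts were 25.7% and 25.5% of the library sizes implied by the deposited FPKM values in controls 1 and 2. In the injury libraries they were 34.4% to 41.9%, so the bound is lower on that scale. No comparison of injury with control 3 could be made for Tfec, since all 4 libraries were at 0.

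Cd72 and Tfec were the members that were lower after injury than in controls 1 and 2 by the test below, and the 250 bases before their starts are shown for that reason. The sequences are from RefSeq on GRCm38.p6, read 5′ to 3′ on the gene's strand at chr4:43454627-43454876 (minus strand) for Cd72 and at chr6:16898442-16898691 (minus strand) for Tfec. The capitals mark the letters AGGAAGT or their reverse complement ACTTCCT, a core that ETS factors such as PU.1 are known to bind.
Cd72: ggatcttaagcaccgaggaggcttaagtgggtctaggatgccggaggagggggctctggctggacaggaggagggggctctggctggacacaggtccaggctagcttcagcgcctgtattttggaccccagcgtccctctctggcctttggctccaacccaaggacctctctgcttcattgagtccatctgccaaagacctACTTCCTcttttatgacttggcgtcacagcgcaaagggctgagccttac
Tfec: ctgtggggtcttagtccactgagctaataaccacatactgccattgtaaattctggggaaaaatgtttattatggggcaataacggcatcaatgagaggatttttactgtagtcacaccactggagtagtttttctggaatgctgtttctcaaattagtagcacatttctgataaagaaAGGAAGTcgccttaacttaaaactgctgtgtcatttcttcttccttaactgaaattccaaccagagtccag
The match begins 49 bases before the start in Cd72, on the opposite strand, and 71 bases before it in Tfec, on the gene's own strand. Searched on both strands, AGGAAGT occurred in 7.69% of the 32851 windows of this length. The letters CACGTG, an E-box that MiT factors bind, occurred in 6.02% and TGCTGAG, part of the element that Maf and Bach factors bind, in 6.21%. Neither was in the windows of Cd72, Tfec, Pax5 or Bach2, and AGGAAGT was not in those of Pax5 or Bach2. The Bach2 window, chr4:32417185-32417434, belongs to a RefSeq start inside the gene and ends 178631 bases past the start of the Bach2 feature, so the bases before that feature were not searched. The motifs do not overlap one another and were picked after the sequences had been looked at. A match describes letters and is not a bound site.

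Pax5 had few counts in every library. Its feature, ENSMUSG00000014030, covers chr4:44524757-44710487 on the minus strand, with 13 exons of 8853 bases equal to those of GRCm38. The controls held 5, 13 and 16 counts, or 1.28, 3.31 and 6.12 CPM. Injury 1, 2 and 3 held 16, 15 and 19 counts, or 5.51, 5.27 and 7.96 CPM. Controls 1 and 2 were below all 3 injury libraries, and control 3 lay inside their range. Its interval in control 3 was 3.50 to 9.94 CPM, which holds all 3 injury values. Pax5 averaged 6.25 ± 1.49 CPM after injury (SD, n = 3) and 3.57 ± 2.43 CPM in control (SD, n = 3). Of the exons, 636 bases (7.18%) are shared with 5730488B01Rik and 125 bases (1.41%) with Gm12462, both on the other strand. Controls 1 and 2 were thus below the other libraries for Pax5, where they were above them for Cd72. Within that pair both genes were higher in control 2 than in control 1.

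Bach2 was nearly level across the 6 libraries in CPM. Its feature, ENSMUSG00000040270, covers chr4:32238804-32586108 on the plus strand, with 9 exons of 9940 bases equal to those of GRCm38. The controls held 297, 343 and 206 counts, or 76.2, 87.5 and 78.8 CPM. Injury 1, 2 and 3 held 252, 221 and 190 counts, or 86.7, 77.6 and 79.6 CPM. The groups overlapped, and within the injury group the highest value was 1.12 times the lowest. Bach2 averaged 81.3 ± 4.78 CPM after injury (SD, n = 3) and 80.8 ± 5.89 CPM in control (SD, n = 3). This level reading depends on the scale: the deposited FPKM values of Bach2 were 1.97 and 2.24 in controls 1 and 2, 3.03 in control 3, and 3.002, 2.74 and 3.36 after injury. Of its exons, 537 bases (5.4%) are shared with Bach2os on the other strand, a transcript that stood at 1.76 to 5.61 CPM.

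Between genes, levels were compared per length, as CPM per kb of feature. After injury the order was Lyn (18.2 ± 6.79 CPM per kb, SD, n = 3), Bach2 (8.18 ± 0.481), Cd72 (1.87 ± 1.54), Pax5 (0.706 ± 0.169) and Tfec at 0. The lowest injury value of Lyn (11.8) was above the highest of Bach2 (8.72), while the ranges of Cd72 (0.245 to 3.32) and Pax5 (0.595 to 0.8996) overlapped. Control 3 had the same order, with 11.5 CPM per kb for Lyn, 7.92 for Bach2, 1.23 for Cd72, 0.691 for Pax5 and 0 for Tfec. In controls 1 and 2 the order was another: means were 43.2 CPM per kb for Lyn, 23.8 for Cd72, 10.2 for Tfec, 8.23 for Bach2 and 0.260 for Pax5. The ranges of neighbours did not all separate there, since Lyn in control 1 (28.5) was below Cd72 in control 2 (35.8), and Tfec in control 1 (8.76) was below Bach2 in control 2 (8.80). These values divide by the whole feature, while reads on the bases that Cd72 shares with Tesk1 were not counted. Over the 1999 unshared bases of Cd72 its values were 1.71 times higher, 20.2 and 61.4 CPM per kb in controls 1 and 2, so that Cd72 was then above Lyn (57.8) in control 2 and below it (28.5) in control 1. After injury Cd72 then averaged 3.21 ± 2.64 CPM per kb (SD, n = 3), still between Bach2 and Pax5.

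Injury against control 3 gave no call for any of the 5 genes. Lyn was the member whose control 3 value lay outside the injury range, below all 3 libraries, and 67.7% of the 13857 features tested lay outside in either direction. The mean of Lyn after injury was 1.58 times control 3 in CPM. In edgeR's quasi-likelihood test with Benjamini-Hochberg adjustment, the log2 fold change of Lyn was 0.78 (SE 0.26, 1.72-fold) with an adjusted p of 0.0695, and it was higher in 3 of 3 injury libraries. Cd72 had a log2 fold change of 0.76 (SE 0.69, adjusted p = 0.508), Pax5 of 0.13 (SE 0.48, adjusted p = 0.886) and Bach2 of 0.17 (SE 0.17, adjusted p = 0.569). For Pax5 and Bach2 the sign was negative when library sizes were taken from the deposited FPKM values (-0.034 and -0.0020) and in the fit on features whose names hold (-0.051 and -0.017). Tfec did not pass the filter on low counts. The test called 0 of 4 members and 6.78% of all features, 1.05% higher and 5.72% lower after injury. limma-voom called 0 of the 4. DESeq2 gave none of them an adjusted p, and of its 499 calls 495 were higher after injury and 4 lower, the opposite split to edgeR.

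The Lyn difference from control 3 rests on which injury libraries enter and on the scaling. Leaving out injury 3 gave 1.04 (adjusted p = 7.67e-04) and leaving out injury 2 gave 0.87 (adjusted p = 0.00901), while leaving out injury 1 gave 0.50 (adjusted p = 0.0951). RLE scaling gave 0.82 (adjusted p = 0.0468) and scaling to the total count gave 0.66 (adjusted p = 0.168). Over its 10 alternatives the adjusted p ran from 7.67e-04 to 0.304, and 4 of the 10 passed 0.05. With 1 library, control 3 had to be assumed to vary as the injury libraries do.

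Injury against controls 1 and 2 gave calls for 3 of the 5 genes, where 66.8% of the 15320 features tested were called. The ranges of 4 of the 5 genes did not overlap (Bach2 was the exception), beside 77.7% of all features. Cd72 and Tfec were lower after injury, as were 36.6% of features, and Pax5 was higher, as were 30.2%. Cd72 fell by 3.05 on the log2 scale (SE 0.72, adjusted p = 0.00955 in edgeR's quasi-likelihood test), lower in 3 of 3 injury libraries than in both controls. Its plain ratio of mean CPM, controls 1 and 2 over injury, was 12.7. Tfec fell with an adjusted p of 4.84e-04 in the same test, and its fitted log2 value of -10.29 depends on the prior count. The bound of at least 155-fold given above is the size to use in CPM, and it is lower with library sizes from the deposited FPKM values.

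Pax5 rose by 1.97 on the log2 scale (SE 0.51, adjusted p = 0.0129), higher in 3 of 3 injury libraries than in both controls. This rise lost its call with total count scaling (1.40, adjusted p = 0.0817) and in the fit on features whose names hold (0.88, adjusted p = 0.153), and it rests on 5 and 13 counts in the controls. Lyn was not called at -0.70 (SE 0.33, adjusted p = 0.101). It did pass with total count scaling at -1.27 (adjusted p = 0.0325) and on features whose names hold at -1.79 (adjusted p = 0.0122). Lyn was at -0.70 without control 1 and at -0.45 without control 2, fits that leave a single control library. Bach2 was not called at 0.47 (SE 0.22, adjusted p = 0.105), and its sign turned with total count scaling (-0.030) and on features whose names hold (-0.61, adjusted p = 0.0320). In the same single-control fits Bach2 was at 0.86 without control 1 and at 0.29 without control 2. Scaling to the total count moved the median log2 fold change of all features by -0.53 in this comparison. Levels of neural and kidney tubule markers moved with these calls, and their part in them was not tested.

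Over all 6 libraries, none of the 5 genes was called, and neither was any of the 12646 features tested (0%). In simulated counts this fit recovered 0% of 4-fold, 2% of 8-fold and 14% of 16-fold changes, so a missing call says little. For no member did the ranges of the groups separate, while 39.2% of features did. The log2 fold changes were -0.63 for Lyn (SE 0.56, adjusted p = 0.452), -2.85 for Cd72 (SE 1.22, adjusted p = 0.203), 1.02 for Pax5 (SE 0.62, adjusted p = 0.304) and 0.16 for Bach2 (SE 0.27, adjusted p = 0.683), with the sign of Bach2 turning under total count scaling (-0.066). Tfec did not pass the filter in this fit. In edgeR 0 of the 4 had an unadjusted p under 0.05, and 3245 of all features did. DESeq2 called 0 of 5 members, with an unadjusted p under 0.05 for 2 of them and for 4761 of all features. In limma-voom 0 of 4 were called. All 3 comparisons share the injury libraries, so their values are not independent of one another.

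**Figure D3:**
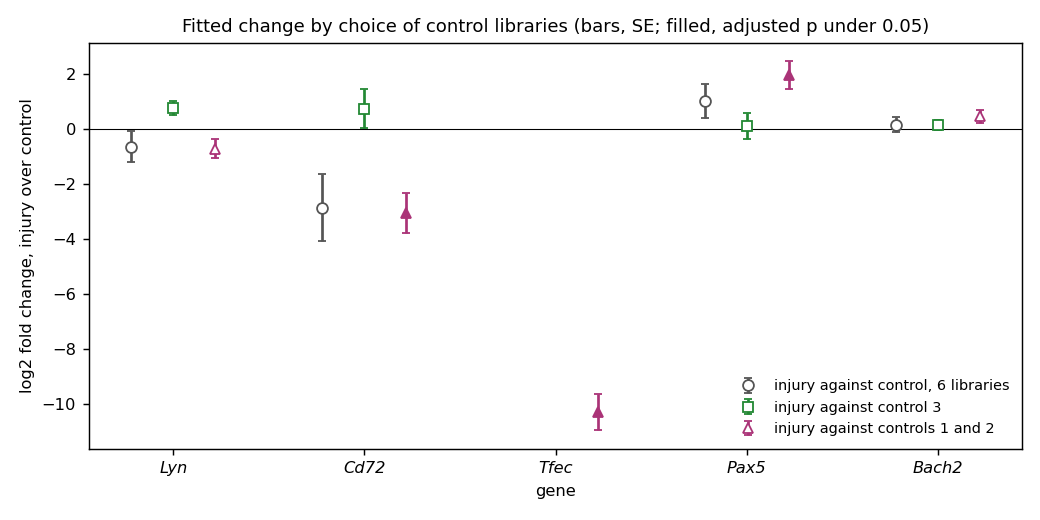
Log2 fold change of injury against control for each gene in the 3 comparisons, with bars of 1 standard error, from edgeR. Filled points passed an adjusted p of 0.05: Cd72 (-3.05), Tfec (-10.29) and Pax5 (1.97) against controls 1 and 2, and none in the other two comparisons.

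Genes of the same pathways were read next, from lists chosen with earlier results of these data known. Most of their features lie off the gene of their name, so counts were summed by the gene whose exons the features lie on. Whole feature counts were summed, so reads on bases off those exons can be included and parts of a gene can be missing. The sums are thus approximate levels, and they take file coordinates to be GRCm38, which the sources do not state. Against control 3 this reading called 38 of 5367 genes (0.708%, none of them higher), and against controls 1 and 2 it called 59.6% of 5646 genes, 28.1% higher and 31.5% lower. Against control 3, edgeR called 0 of the 26 related genes tested, which include Lyn, Cd72, Pax5 and Bach2 themselves. Over all 6 libraries it called 0 of 25, again with these members included, and 0 of all 5128 genes. At an unadjusted p under 0.05 were 7 of the 25, Cd72 among them, and 1000 of all genes. No other tool was run on this reading.

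Of the 8 Src family kinases 6 could be read and 5 were tested against controls 1 and 2, with 1 higher after injury and 4 lower, and a median log2 fold change of -2.57 beside -0.08 for all genes. Fyn, the Src kinase of T cells and neurons, stood at 15.9, 60.2 and 137 CPM in the controls and 148, 150 and 139 CPM after injury. It rose by 2.05 against controls 1 and 2 (SE 0.43, adjusted p = 0.00890). Fgr, a kinase of myeloid cells, stood at 54.7 and 67.1 CPM in controls 1 and 2, at 3.44 CPM in control 3 and at 1.76 to 2.75 CPM after injury, and fell by 4.69 (SE 0.32, adjusted p = 3.76e-04). Lck, the T cell kinase, fell by 2.77 (adjusted p = 0.0116). Lyn is among the 4 lower genes in this reading (-1.19, adjusted p = 0.0280), unlike in the fit over features. Against control 3, 3 were tested, with a median of 0.13 beside 0.04 for all genes. Those 3 were Lyn (0.71), Fyn (0.13) and Lck (-1.08). Of the named kinases, Fyn was the one that was higher after injury than in controls 1 and 2.

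Of 24 genes of the B cell receptor and its signalling 10 could be read. Against controls 1 and 2, 8 were tested, with 1 higher and 3 lower, and a median of -1.13 beside -0.08. Cd72 itself is among the 3 lower and enters the medians of this list. Prkcb, a protein kinase C of B cells and neurons, was at 2.05 and 3.06 CPM in controls 1 and 2, at 97.9 CPM in control 3 and at 111 to 116 CPM after injury, and it rose by 5.47 (SE 0.26, adjusted p = 2.14e-04). Malt1, a protease of antigen receptor signalling, fell by 2.72 (adjusted p = 7.52e-04), from 60.6 and 113 CPM to between 11.4 and 14.7 CPM. Inpp5d, the lipid phosphatase SHIP1, which acts with Lyn in inhibitory signalling, stood at 43.1, 148 and 30.6 CPM in the controls and at 61.6, 33.7 and 26.0 CPM after injury, with no call (-1.13, adjusted p = 0.0940). Sema4d, the CD72 ligand CD100, stood at 79.0, 89.5 and 99.4 CPM and at 136, 126 and 91.4 CPM, with no call (0.46, adjusted p = 0.173). Sema4d thus ran from 79.0 to 136 CPM over the 6 libraries, where its receptor Cd72 ran from 0.838 to 123 CPM. Against control 3, 8 genes were tested, with a median of 0.37 beside 0.04.

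Of 16 B lineage transcription factors 7 could be read and 6 were tested against controls 1 and 2, with 1 higher (Pax5) and 2 lower, and a median of -0.91. Spi1, which encodes PU.1 of myeloid and B cells, was at 9.75 and 50.7 CPM in controls 1 and 2, at 3.44 CPM in control 3 and at 6.19, 3.16 and 2.93 CPM after injury, and it fell by 2.72 (adjusted p = 0.0141). Irf8, a factor of B cells and microglia, was not called (-0.88, adjusted p = 0.287) at 14.9, 62.0 and 13.8 CPM in the controls and 30.3, 19.3 and 7.54 CPM after injury. Tcf3, whose protein E2A acts before Pax5 in B cell development, was not called either (-0.93, adjusted p = 0.142). Against control 3 the median of the 6 tested was 0.19.

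Of the 10 genes of the MiT family and its macrophage targets 5 could be read, and 4 were tested against controls 1 and 2, with 1 higher and 2 lower (Tfec and Spi1) and a median of -1.34. Tfe3, a relative of Tfec made in most tissues, was not called at 62.7 to 82.1 CPM in the controls and 74.2 to 80.5 CPM after injury (0.04, adjusted p = 0.871). Gpnmb, a lysosomal glycoprotein of macrophages, was at 1.28, 3.31 and 8.03 CPM in the controls and at 25.1, 14.4 and 7.13 CPM after injury. It rose by 2.79 against controls 1 and 2 (adjusted p = 0.0146) and was not called against control 3 (1.01, adjusted p = 0.418). Of the 3 tested against control 3 the median was 0.34. The MiT factors Mitf and Tfeb could not be read. Tfec was at 0 in control 3 and after injury, and Tfe3 was not.

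Of 12 leukocyte genes that lie near the 5 on chromosomes 4 and 6, all 12 had names that hold. Against controls 1 and 2, 7 were tested, 1 was higher (Ccl27a) and 2 were lower, with a median of 0.43. Samd9l, an interferon-induced gene, was at 258 and 930 CPM in controls 1 and 2, at 79.5 CPM in control 3 and at 81.7 to 101 CPM after injury, and it fell by 2.55 (adjusted p = 0.00339). Ddx58, the RNA sensor RIG-I, fell by 1.75 (adjusted p = 0.0267). Map3k7 (0.43, adjusted p = 0.150), a kinase of innate signalling, and Creb3 (0.57, adjusted p = 0.117) were not called. Against control 3 the median of the 7 tested was 0.28.

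Lyn and Cd72 had an order within the injury group, highest in injury 1 and lowest in injury 3. This order was noticed after the values were seen, and replicates have no order of their own, so it describes these libraries only. Of the 5 genes 2 had it. Of the 22 other related genes that were read and tested, 12 had it (54.5%), beside 26.1% of 13857 features and 24.8% of 5367 genes. They were Ddx58, Gpnmb, Ikzf1, Inpp5d, Irf8, Pik3ap1, Pik3cd, Sema4d, Spi1, Tcf3, Tfe3 and Vav1. Both readable microglia markers had it too, Aif1 at 31.0, 15.5 and 9.64 CPM and Trem2 at 5.16, 4.57 and 1.68 CPM in injury 1, 2 and 3. None of the 4 readable macrophage and monocyte markers had it, such as Lyz2 at 19.6, 21.4 and 12.6 CPM and Ccr2 at 5.51, 1.76 and 3.77 CPM.

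**Figure D4:**
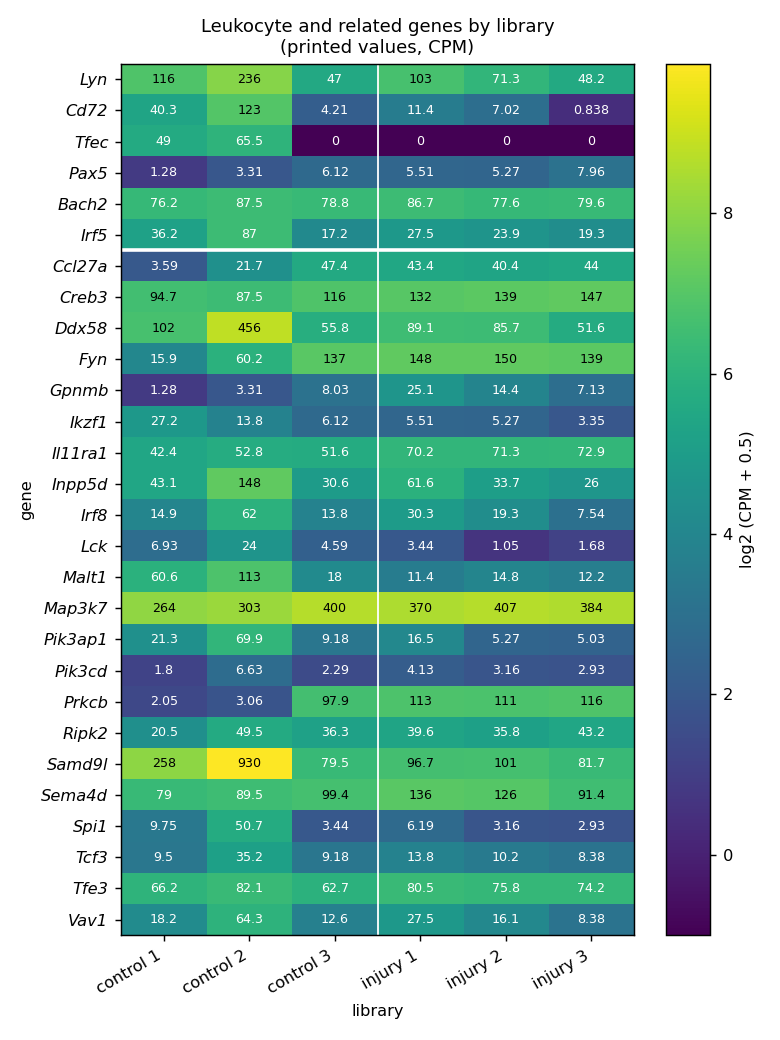
Log2 (CPM + 0.5) of the 5 genes and Irf5 (above the white line) and of 22 related genes (below it) in each library, not centred, with CPM printed. Lyn, Cd72 and Irf5 were highest in control 2 (236, 123 and 87.0 CPM), and Pax5 was lowest in control 1 (1.28 CPM).

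Markers of leukocytes, blood and vessels also differed between libraries, and their part in the results was not tested. Of 8 B cell markers 3 could be read, and their sum was 42.1, 127 and 10.7 CPM in the controls and 9.22 to 16.9 CPM after injury. Cd72 made up most of the sum in controls 1 and 2, while Ms4a1, which encodes CD20, was at 0.513, 1.27 and 0.382 CPM in the controls and at 0 in injury 1 and 2 and 0.419 CPM in injury 3. Ms4a1 was read by summed features, so these values may miss part of its level and may include reads off its exons. Of 7 macrophage and monocyte markers 4 could be read, with a sum of 16.9, 426 and 21.0 CPM in the controls and 23.1 to 27.9 CPM after injury. The 2 of 6 microglia markers (Aif1 and Trem2) summed to 0.513, 34.7 and 14.9 CPM and to 11.3 to 36.1 CPM. Of 3 erythroid markers 2 could be read, with a sum of 20.8, 46.9 and 356 CPM in the controls and of 403, 6.67 and 85.1 CPM in injury 1, 2 and 3. Pecam1, an endothelial gene also made in leukocytes, stood at 50.05, 244 and 27.5 CPM in the controls and at 20.3, 18.6 and 23.9 CPM after injury, highest in control 2 as Lyn and Cd72 were. It was lower against controls 1 and 2 by the test over overlying genes (-2.66, adjusted p = 0.00676). The T cell list was read by Lck alone of 6, and none of 5 neutrophil markers could be read. Controls 1 and 2 thus differed from each other in macrophage markers, and control 2 also held 2.03 times the Lyn level of control 1, 3.04 times its Cd72 level and 1.34 times its Tfec level.

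The genes whose pattern over the 6 libraries was most like each of the 5 were taken from 433 features whose names hold, by the root mean square difference of centred log2 (CPM + 0.5). Nearest to Lyn was Irf5 (0.192, where the median feature was at 1.24), an interferon regulatory factor of myeloid and B cells, at 36.2, 87.0 and 17.2 CPM in the controls and 27.5, 23.9 and 19.3 CPM after injury. Irf5 was followed by Anks6 (0.270) and Susd1 (0.292). Nearest to Cd72 were Map3k8 (0.873), Birc3 (0.919) and Rnf133 (0.949), at a median of 2.42, and Map3k8, a kinase of innate immune signalling, stood at 82.9, 119 and 11.1 CPM in the controls and at 11.4, 10.9 and 7.13 CPM after injury. Nearest to Tfec were Atp6v0d2 (0.237), Aqp3 (0.320) and Stra6l (0.553), at a median of 3.57. Atp6v0d2, a subunit of the proton pump of osteoclasts and kidney, stood at 84.2 and 131 CPM in controls 1 and 2 and at most 0.838 CPM elsewhere. Aqp3, a water and glycerol channel of the collecting duct, stood at 35.2 and 37.0 CPM in controls 1 and 2 and at 0 elsewhere. Both are on the kidney tubule list given above. Nearest to Pax5 were Aptx (0.148), Zfp438 (0.181) and Inip (0.183), at a median of 0.816, and nearest to Bach2 were Rnf20 (0.0645), Virma (0.0734) and Anp32b (0.0826), at a median of 0.842. Rnf20, a ubiquitin ligase of histones, stood at 352 to 435 CPM in the 6 libraries.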

How the data were processed

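RNA was sequenced from 6 mouse libraries made from total RNA with an Illumina TruSeq kit, per the labels' protocols. Per the file headers, featureCounts 2.0.1 produced the deposited counts: it took pairs whose 2 reads both mapped, grouped exons under gene names, ignored strand and dropped reads that were ambiguous between genes or places. Bowtie 0.12.2 and the builds mm8 and mm9 appear in the submitters' processing notes. The build and annotation of the counts are not given in the sources used here, so file coordinates were compared with GENCODE M21 (GRCm38) and never converted. The deposited FPKM values served as a second scale, through the library sizes they imply. Groups and replicate numbers come from the labels.

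CPM is the count per 1000000 of a library's total count. The test was edgeR 4.0.16 (R 4.3.3) on counts, with TMM scaling, default filterByExpr, the quasi-likelihood F test and Benjamini-Hochberg adjustment over all features, called at 0.05. Standard errors come from the F statistic. DESeq2 1.42.0, limma-voom (limma 3.58.1), RLE and total count scaling, no filter, features whose names hold, a replicate block and leaving out each library were alternatives. FPKM library sizes and the fit by overlying gene (features with at least 100 bases on exons, 90% of them of 1 gene) were added after seeing the data. The pipeline was tested on counts simulated with the spread of these libraries. Against controls 1 and 2 it recovered 2% of 2-fold, 34% of 4-fold and 82% of 8-fold changes, so small changes could be missed there.

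The 5 genes, the lists and the markers were chosen with earlier results of these data known. Named beside the 5 genes are their 3 nearest features each (mean of at least 1 CPM, no predicted genes or pseudogenes) and up to 4 genes per list with the highest mean CPM. Ccl27a, Ms4a1, Acan, Aif1, Trem2, Lyz2, Ccr2, Pecam1, Tesk1 and the genes with an order within the injury group were named after their values were seen. Replicate numbers were not used to pair libraries, except in the replicate block.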

Additional observations from a re-analysis of the deposited data

How the results depend on the processing

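Cd72 and Tfec were called against controls 1 and 2 in 14 of 14 alternatives each. Over all gene results and alternatives, 144 of 170 kept their direction and side of 0.05, 3 lost the call, 12 gained one and 11 turned sign. Over 6 libraries DESeq2 called 1225 features where edgeR called 0, and leaving out single libraries gave 0 to 10231, the latter without control 3. Without control 3, Cd72 was called at -3.05 (range over libraries left out -3.23 to -1.93) and Pax5 at 1.97 (range 0.66 to 1.97). Bach2 turned to -0.066 with total count scaling, -0.62 on features whose names hold and -0.092 by overlying gene. Without a filter Tfec was at -9.65 (adjusted p = 0.0790), and DESeq2 gave -8.52 (adjusted p = 0.145). Against control 3, DESeq2 called 499 features, the fit on names that hold 11 and FPKM library sizes 1684, beside 939 in edgeR. Leaving out libraries gave 758 (without injury 2) to 1992 (without injury 1). The share of calls that were higher was 15.5%, 25.8% with RLE, 5.28% with total count, 2.43% with FPKM library sizes, 43.3% with no filter and 99.2% in DESeq2 (1516 features with an adjusted p). It was 25.7% to 38.2% with libraries left out. Lyn was called with RLE (0.82) and no filter (0.90), with a range of 0.50 to 1.04 over libraries left out. Pax5 turned to -0.051 on names that hold and -0.034 with FPKM library sizes (range -0.027 to 0.31), and Bach2 to -0.017 and -0.0020. Against controls 1 and 2, 316 of 511 features were called on names that hold, beside 10231 in edgeR, and 7973 to 14333 with libraries left out. The share of calls that were higher went from 45.2% to 33.3% with total count scaling. Lyn was called at -1.27 (total count), -1.79 (names that hold) and -1.19 (overlying gene), with a range of -0.97 to -0.45. Pax5 lost its call at 1.40 (total count) and 0.88 (names that hold). Bach2 turned to -0.030 (total count), -0.61 (names that hold) and -0.029 (overlying gene), with a range of 0.29 to 0.86. Where fewer features or libraries enter, that alone changes counts, and for the other changes the cause was not tested.

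Deviations of same-numbered libraries from their group means correlated at 0.0643, -0.137 and 0.0543, and not every library correlated best with its own number. The split of controls 1 and 2 from control 3 enters these deviations, so they cannot decide whether replicate numbers pair libraries. With the replicate block, 0 features were called over 6 libraries and 7501 against controls 1 and 2, where Pax5 lost its call at 1.79 (adjusted p = 0.0930), Cd72 kept it at -2.49 (adjusted p = 0.00514) and Tfec at -10.29. Over 6 libraries it gave -0.46 for Lyn, -2.65 for Cd72, 1.17 for Pax5 and 0.17 for Bach2, none called. For injury against control 3 no paired analysis was possible, because control 3 shares its number with only 1 injury library. Depth limits Pax5 (5 to 19 counts) and Cd72 in injury 3 (2 counts).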
